A study of Homo sapiens with 16 samples.

Results

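The mRNAs described here encode the proteins of the mitochondrial ribosome. They were chosen by symbol, as the protein-coding genes of GENCODE whose names consist of MRPL or MRPS, a number and, in a few cases, a letter from A to C. The rule gave 78 genes of the 60107 listed in each count file, of which 49 carry an MRPL symbol (large subunit) and 29 an MRPS symbol (small subunit), and all 78 were found in the files. No measured value entered the rule, but it was chosen with earlier results of these data known.

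The mitochondrial ribosome translates the few mRNAs that the mitochondrial genome encodes, all of them for subunits of the respiratory chain and the ATP synthase. Its RNAs come from the mitochondrial genome, whereas every one of its proteins is encoded in the nucleus, translated on cytoplasmic ribosomes and imported. Some of these proteins have bacterial homologues, and others were added in the mitochondrial lineage and coat the outside of the particle. Their mRNAs are capped and polyadenylated like other nuclear transcripts. Several are counted among the TOP mRNAs, which start with a cytidine and a run of pyrimidines next to the cap and are bound there by LARP1.

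The cells were U2OS-TR, human osteosarcoma cells engineered to express the tetracycline repressor. One clonal derivative held ΔN-RNMT, an inactive form of the cap methyltransferase RNMT that lacks the nuclear localization sequences, under a CMV promoter with tetracycline operators. It was compared without the inducer (uninduced, n = 5) and after 24 h of doxycycline at 1 μg/ml, added 48 h after plating (induced, n = 5), which asked what happens to mRNA levels when cytoplasmic cap methylation is blocked. The parental U2OS-TR line, without the transgene, served as the doxycycline control (no dox, n = 3 and with dox, n = 3). GEO's protocol text names doxycycline for all samples, so the treatment of each group was taken from its own label. The libraries were made from cytoplasmic RNA with QuantSeq REV, which counts 1 tag per mRNA next to the poly(A) tail, and the paper calls the 5 replicates biological.

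*RNMT* tags ranged from 55.6 to 112.5 CPM in the uninduced and from 265.8 to 458.5 CPM in the induced libraries (log2 fold change 2.22 ± 0.23, edgeR adjusted p = 0.00805), which fits the labels, and from 56.2 to 124.4 CPM in the parental line. Depth was 12527183 to 23251834 gene counts in the transgene line and 1473286 to 3214808 in the parental line. The mesenchymal genes *SPARC*, *VIM*, *COL1A1* and *RUNX2* were detected in all 16 libraries, *COL1A2* was at 0 in 14, the osteoblast gene *BGLAP* was at 0 in all, and so were the blood gene *CD3E* and the liver gene *ALB*. Not all genes of other cell types were absent. The epithelial gene *EPCAM* was detected in all 16 libraries, at 4.89 to 14.3 CPM in the transgene line and 1.83 to 10.4 CPM in the parental line. In the transgene line the epithelial gene *CDH1* stood at 0.152 to 2.67 CPM and the blood gene *PTPRC* at 0 to 0.698 CPM. Uninduced library 5 and induced library 2 lay between the other libraries of the 2 groups, and the values without both are given with the counts of calls.

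Induction of ΔN-RNMT went with changes in both directions among these mRNAs. Of the 78, 77 passed the filter of a base mean above 20 counts, and 20 of them fell and 11 rose in edgeR's quasi-likelihood test (adjusted p below 0.05), while 46 did not pass it. The falls took in 26.0% of the tested mRNAs against 19.8% of all 13038 genes tested, and the rises 14.3% against 20.0%, so both shares lay near the background. The median log2 fold change (induced minus uninduced) was −0.16 over the 77 mRNAs and 0.04 over all genes. *MRPS24* did not pass the filter, and it overlaps a readthrough gene on the same strand. The falls ran from 0.47 to 1.15 on the log2 scale and the rises from 0.58 to 2.60.

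**Figure D1:**
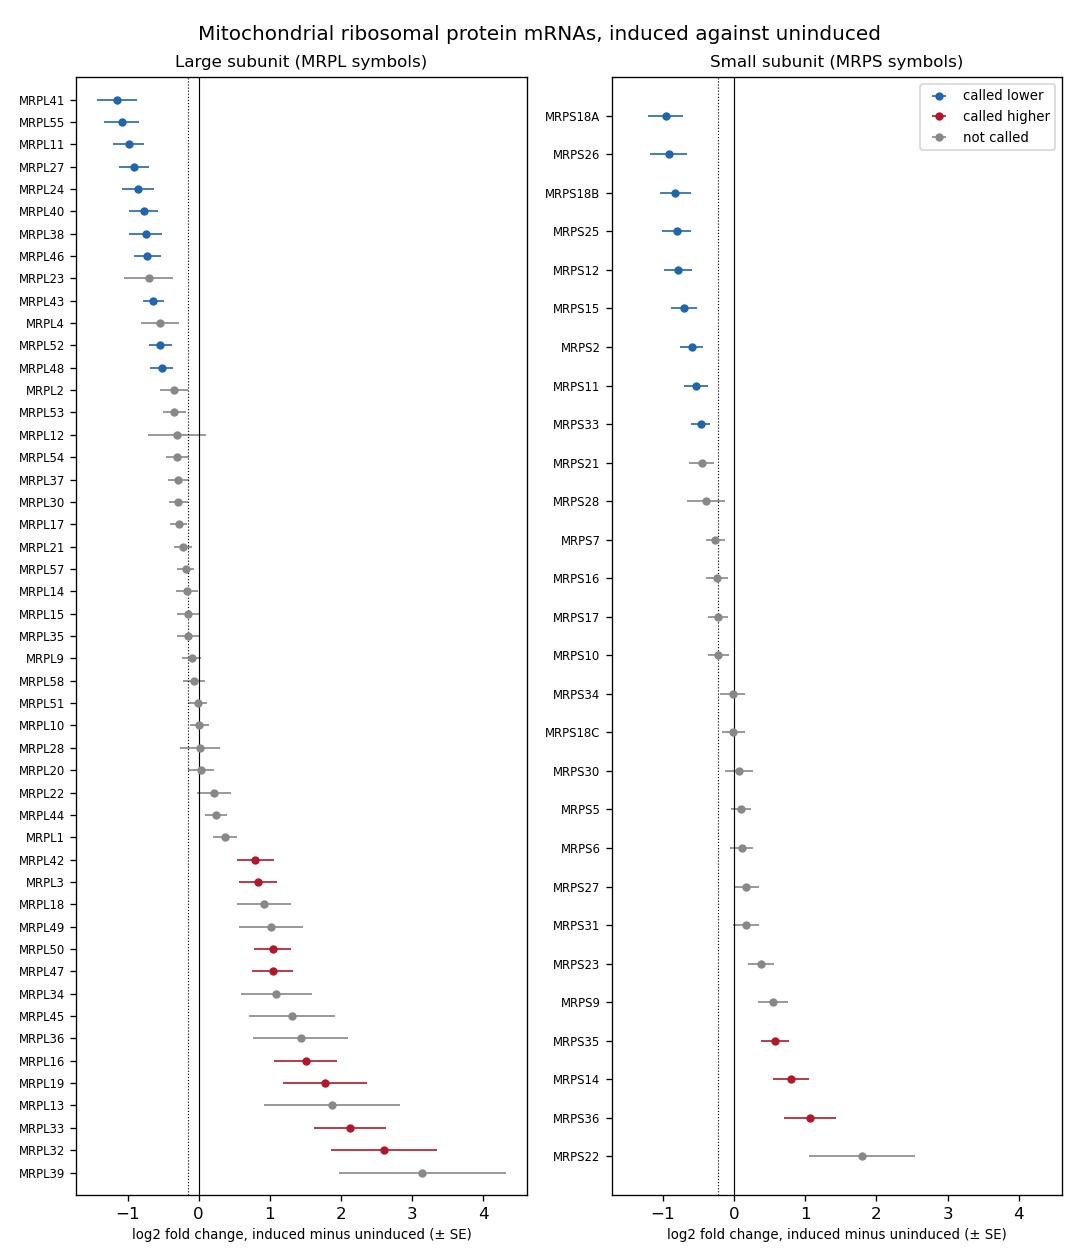
Log2 fold change (induced minus uninduced, n = 5 and 5) of the 77 tested mRNAs on the x axis, with its SE as a bar, large subunit on the left and small subunit on the right; colours mark calls at an adjusted p below 0.05 and the dotted line is the median of the subunit. Falls reach 1.15 below 0, rises reach 2.60 above 0 and carry wider bars, and *MRPL39* at 3.15 was not called.

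The 3 largest falls were in the large subunit. The level of *MRPL41*, a protein of the mitochondrial lineage, is given first, in CPM (tag counts relative to the TMM-scaled size of the library). *MRPL41* stood at 375, 403, 558, 315 and 189 CPM in uninduced libraries 1 to 5 and at 131, 256, 133, 149 and 161 CPM in induced libraries 1 to 5. The lowest uninduced library, number 5, lay below the highest induced library, number 2, and all other uninduced libraries lay above all induced ones. The log2 fold change was −1.15 ± 0.28 (SE, edgeR adjusted p = 0.0177), a 2.21-fold fall. *MRPL55* is another protein without a bacterial homologue. *MRPL55* stood at 82.4, 88.8, 120.2, 68.00 and 46.7 CPM in uninduced libraries 1 to 5 and at 33.8, 53.7, 32.5, 34.5 and 37.1 CPM in induced libraries 1 to 5. It fell by 1.08 ± 0.24 on the log2 scale (edgeR adjusted p = 0.0175), again with an overlap of these same libraries. *MRPL11* encodes the protein at the base of the stalk that recruits elongation factors. *MRPL11* stood at 477, 512, 653, 392 and 287 CPM in uninduced libraries 1 to 5 and at 214, 312, 224, 193 and 229.8 CPM in induced libraries 1 to 5. It fell by 0.99 ± 0.22 (edgeR adjusted p = 0.0175), with uninduced library 5 just below induced library 2. *MRPL27*, whose bacterial homologue reaches towards the peptidyl transferase centre, showed the same order of libraries. *MRPL27* stood at 477, 538, 575, 414 and 322 CPM in uninduced libraries 1 to 5 and at 210.4, 364, 233, 224 and 209 CPM in induced libraries 1 to 5. It fell by 0.91 ± 0.21 (edgeR adjusted p = 0.0175).

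In the small subunit, the largest falls among mRNAs with an MRPS symbol were those of *MRPS18A* and *MRPS26*. *MRPS26* has no bacterial homologue and was measured at a low level. *MRPS26* stood at 28.1, 32.7, 41.8, 25.1 and 19.1 CPM in uninduced libraries 1 to 5 and at 10.2, 20.6, 12.1, 13.7 and 20.8 CPM in induced libraries 1 to 5. Its groups overlapped through uninduced library 5 and induced libraries 2 and 5 (log2 fold change −0.92 ± 0.26, edgeR adjusted p = 0.0214). *MRPS15*, a homologue of a bacterial protein that binds the small subunit RNA early in assembly, was among the mRNAs whose groups did not overlap. *MRPS15* stood at 101, 113, 142, 103 and 91.4 CPM in uninduced libraries 1 to 5 and at 74.3, 81.3, 75.6, 60.97 and 45.4 CPM in induced libraries 1 to 5. Every uninduced library lay above every induced one, and the fall was 0.70 ± 0.19 (edgeR adjusted p = 0.0191). *MRPL11*, *MRPL41* and *MRPS15* are on the study's list of lower TOP mRNAs, which was chosen on these libraries, so their falls are not independent of that list.

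The other named falls are given by their group means. In the large subunit, *MRPL24* fell from 269 ± 67.3 to 149.5 ± 38.7 CPM (mean ± SD, n = 5 and 5), *MRPL40* from 97.9 ± 23.5 to 57.3 ± 12.5 CPM, *MRPL38* from 88.99 ± 26.6 to 53.03 ± 13.5 CPM, *MRPL46* from 71.04 ± 17.7 to 43.1 ± 6.86 CPM and *MRPL43* from 196 ± 31.2 to 126 ± 11.6 CPM. In the small subunit, *MRPS25* fell from 263 ± 72.2 to 150.2 ± 30.2 CPM and *MRPS12*, whose bacterial homologue sits at the decoding site, from 208 ± 52.8 to 120.5 ± 19.98 CPM. *MRPS2*, *MRPL52*, *MRPS11*, *MRPL48* and *MRPS33* made up the rest of the 20, with falls of 0.47 to 0.60 on the log2 scale. The uninduced and induced libraries did not overlap for 5 mRNAs, all lower when induced, which is 6.49% of those tested against 4.22% of all genes (and 0 against 3.08% in the other direction). These were *MRPS25*, *MRPS15*, *MRPL43*, *MRPS33* and *MRPL17*, of which *MRPL17* was not called (log2 fold change −0.28 ± 0.12, edgeR adjusted p = 0.0773).

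Because the study asked about TOP mRNAs, the annotated starts of 9 called mRNAs are shown, 15 bases before the start in lower case and the first 15 bases of the transcript in capitals, from RefSeq (GRCh38.p14), 5′ to 3′ on the coding strand. The first 5 fell, of which the first 4 had the largest falls and *MRPS15* is on the study's TOP list, and the last 4 had the largest rises.
*MRPL41*, chr9:137551864-137551893, plus strand: cggccaatcggagccGCTCTTGCTGCGACG
*MRPL55*, chr1:228109285-228109314, minus strand: gacgcagcgcctgccAGTGACGTCGTGGGC
*MRPL11*, chr11:66438834-66438863, minus strand: ctgccctagcctaacGTGAGGACCCTTGAC
*MRPS18A*, chr6:43687777-43687806, minus strand: acgagaggtcagggtAGGTTTTTGAAGATG
*MRPS15*, chr1:36464370-36464399, minus strand: tccggtattgcaactGCCTCGATTGGTCGA
*MRPL32*, chr7:42932361-42932390, plus strand: accggggcggtcttcCAGCAGGGAAAATGG
*MRPL33*, chr2:27771704-27771733, plus strand: ccgtgccccggaagcAGTTGTTGTTGGTTG
*MRPL19*, chr2:75646768-75646797, plus strand: tgattactgggagctGTAGTCTTGACGTGA
*MRPL16*, chr11:59810764-59810793, minus strand: tgaacacaacttccgGCCCCACTGAGCGGT
None of these 9 annotated starts is a C followed by 4 pyrimidines. A C with at least 4 pyrimidines after it begins within 5 bases of the annotated start of *MRPL41*, which fell, and of *MRPL32*, which rose, and of none of the other 7.

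Over the mRNAs as a whole, 69 of the 78 had a RefSeq start sequence. The C with 4 pyrimidines was at the annotated start of 5 of these (7.25%) and of 4.60% of 15843 protein-coding genes. Within 5 bases of the start it was found in 15 (21.7%), against 22.1% of protein-coding genes. It was found there in 3 of the 20 that fell (*MRPL41*, *MRPL52* and *MRPS33*), in 1 of 10 that rose and in 11 of 38 that were not called. An annotated start can lie some bases from the start used in these cells, so a match or its absence describes only these letters.

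The rises were larger than the falls and less even among libraries. *MRPL32*, a bacterial homologue whose cleavage by the m-AAA protease precedes its assembly into the ribosome, had the largest rise. *MRPL32* stood at 5.23, 5.85, 3.50, 8.28 and 38.7 CPM in uninduced libraries 1 to 5 and at 95.01, 9.31, 100.2, 77.7 and 93.7 CPM in induced libraries 1 to 5. Induced library 2 lay within the uninduced range, and uninduced library 5 lay above it. The log2 fold change was 2.60 ± 0.74 (edgeR adjusted p = 0.022), a 6.08-fold rise, and it was 3.99 ± 0.25 without these 2 libraries. *MRPL33* encodes a small protein near the exit site for tRNA. *MRPL33* stood at 184, 218, 286, 191 and 656 CPM in uninduced libraries 1 to 5 and at 2036, 279, 1738, 1380.0 and 1283 CPM in induced libraries 1 to 5. Induced library 2 lay below uninduced libraries 3 and 5, the other 4 induced libraries lay at least at 1283 CPM, and the rise was 2.13 ± 0.50 (edgeR adjusted p = 0.0175). GENCODE draws *MRPL33* over a long stretch of chromosome 2 (27771717 to 27988087) because of long isoforms, in which it overlaps *BABAM2* on the same strand and *RBKS* on the other.

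*MRPL19* and *MRPL16*, both with bacterial homologues in the large subunit, repeated this order. *MRPL19* stood at 12.4, 11.6, 8.84, 15.8 and 76.2 CPM in uninduced libraries 1 to 5 and at 108, 30.9, 109, 91.8 and 89.7 CPM in induced libraries 1 to 5. *MRPL16* stood at 8.84, 11.3, 13.3, 9.73 and 41.8 CPM in uninduced libraries 1 to 5 and at 53.6, 21.2, 52.3, 59.4 and 55.2 CPM in induced libraries 1 to 5. For both, uninduced library 5 lay above induced library 2, the other 4 uninduced libraries were the lowest, and the other 4 induced libraries the highest. The rises were 1.78 ± 0.59 and 1.51 ± 0.45 (edgeR adjusted p = 0.0353 and 0.0245), and 3.02 ± 0.20 and 2.35 ± 0.16 without those 2 libraries. *MRPS36* carries a small subunit symbol but encodes a component of the oxoglutarate dehydrogenase complex, and not of the ribosome in structures of the particle. *MRPS36* stood at 38.3, 35.6, 23.3, 42.9 and 101 CPM in uninduced libraries 1 to 5 and at 121, 52.1, 114, 106 and 109 CPM in induced libraries 1 to 5. *MRPL47* stood at 23.6, 22.6, 20.5, 29.1 and 54.97 CPM in uninduced libraries 1 to 5 and at 67.4, 38.2, 71.9, 63.8 and 68.9 CPM in induced libraries 1 to 5. Both rose, with log2 fold changes of 1.06 ± 0.36 and 1.04 ± 0.28 (edgeR adjusted p = 0.0392 and 0.0202), and *MRPS36* stood at 1.67 ± 0.19 without uninduced library 5 and induced library 2.

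Smaller rises were called for *MRPL50*, from 14.97 ± 5.19 to 30.8 ± 8.06 CPM (mean ± SD, n = 5 and 5), *MRPL3*, from 104 ± 41.1 to 185 ± 25.3 CPM, and *MRPS14*, from 19.6 ± 7.14 to 34.2 ± 7.08 CPM. *MRPL42* went from 37.03 ± 14.9 to 64.4 ± 14.5 CPM and *MRPS35* from 54.8 ± 12.8 to 81.9 ± 15.99 CPM. The value furthest from 0 among all 77 belonged to an mRNA that was not called, *MRPL39*, which is named here after its values were seen. *MRPL39* stood at 0.406, 0.292, 0.167, 0.194 and 11.4 CPM in uninduced libraries 1 to 5 and at 39.00, 0.847, 30.9, 22.7 and 20.1 CPM in induced libraries 1 to 5. Its log2 fold change was 3.15 ± 1.18 (edgeR adjusted p = 0.0508), with the widest SE of the 77. It was called higher in 7 of 11 other settings and when either uninduced library 5 or induced library 2 was left out, but not when any other single library was, and without both uninduced library 5 and induced library 2 it stood at 6.69 ± 0.33 (adjusted p from 6.43e-08 to 0.13 over all these settings in edgeR and DESeq2).

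**Figure D2:**
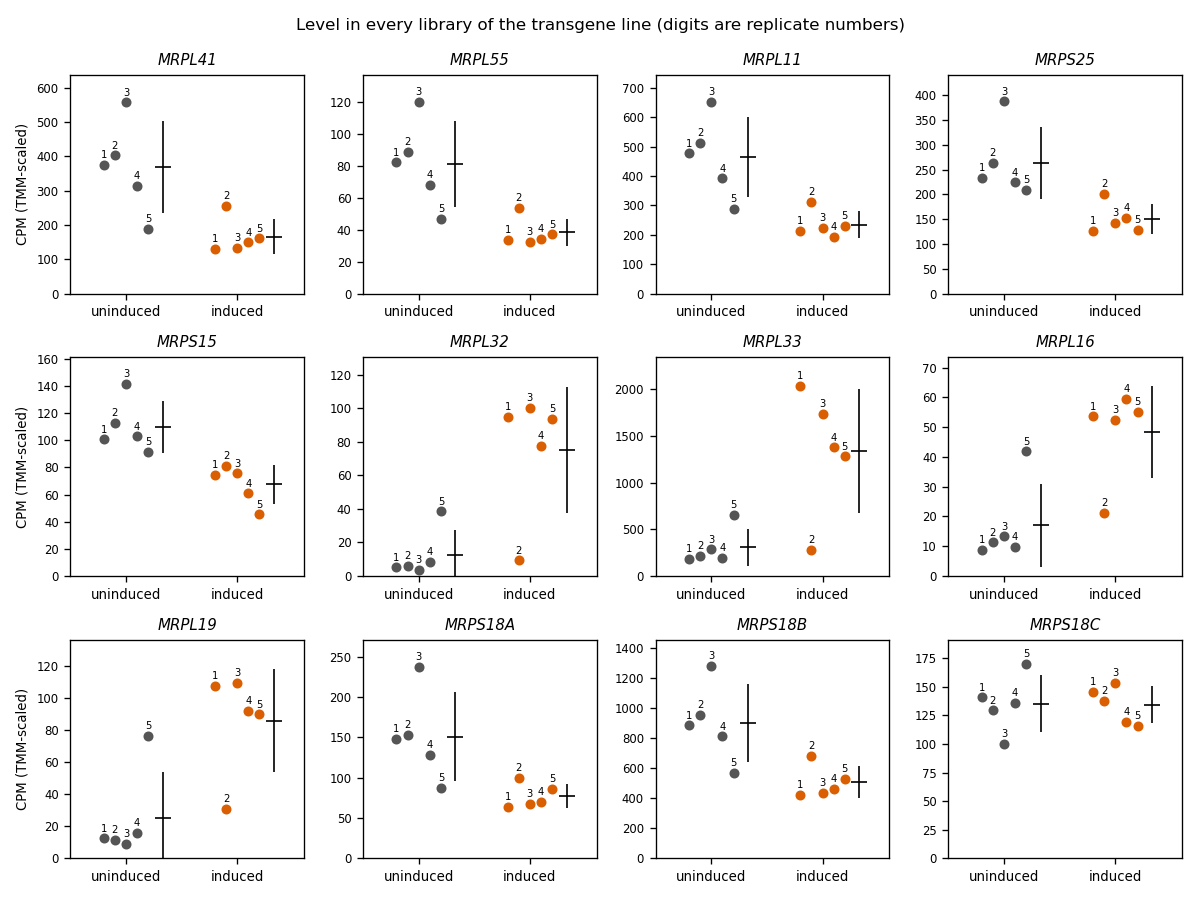
TMM-scaled CPM (y axis, linear from 0) of 12 mRNAs in each uninduced and induced library, digits giving the replicate number; the dash and bar beside each group are its mean and SD (n = 5), cut off at 0. In most panels uninduced library 5 and induced library 2 lie towards the other group, while *MRPS25* and *MRPS15* show no overlap.

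The MRPS18 proteins are 3 related proteins with different places in the ribosome, *MRPS18A* in the large subunit and *MRPS18B* and *MRPS18C* at separate sites of the small one. *MRPS18A* stood at 148, 154, 238, 129 and 87.1 CPM in uninduced libraries 1 to 5 and at 63.5, 99.8, 67.4, 70.1 and 86.2 CPM in induced libraries 1 to 5. *MRPS18B* stood at 887, 957, 1282, 813 and 569 CPM in uninduced libraries 1 to 5 and at 422, 686, 438, 465 and 531 CPM in induced libraries 1 to 5. *MRPS18C* stood at 141, 129, 100.1, 136 and 170.3 CPM in uninduced libraries 1 to 5 and at 145, 138, 153, 119 and 116 CPM in induced libraries 1 to 5. *MRPS18A* and *MRPS18B* were highest in uninduced library 3 and lower in most induced libraries, whereas the *MRPS18C* groups covered the same range. *MRPS18A* fell by 0.96 ± 0.25 and *MRPS18B* by 0.83 ± 0.22 (edgeR adjusted p = 0.0179 and 0.0194), and *MRPS18C* had a log2 fold change of −0.01 ± 0.16 (edgeR adjusted p = 0.958). Whether these responses differ from each other was not tested. They have 1, 2 and 3 annotated pseudogenes, so that tags shared with those copies are uncertain.

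The subunits were compared by symbol, as the rule for the mRNAs divides them. In the large subunit 11 of 49 tested mRNAs fell and 8 rose, and in the small subunit 9 of 28 fell and 3 rose, beside the 19.8% of all genes that fell and the 20.0% that rose. The median log2 fold change was −0.15 in the large and −0.23 in the small subunit, a difference of 0.08 (large minus small). A related measure, the median log2 level of the large minus that of the small subunit, was taken per library. Its mean was −0.60 in the uninduced and −0.55 in the induced libraries. The SE of the difference between these 2 means was 0.113 (n = 5 and 5), and they lay closer together than that. With GC offsets per transcript the difference of median fold changes was 0.24, and with offsets for the last 75 bases of the transcript 0.29. Neither was tested. By position in the ribosome, with *MRPS18A* and *MRPS30* in the large subunit and *MRPS36* in neither, the difference was again 0.08. In these counts too the background is 19.8% lower and 20.0% higher. Of the 21 large subunit mRNAs for proteins without bacterial homologues, 8 fell and 2 rose, and of the 30 with homologues 4 fell and 6 rose. These 4 include *MRPS18A*, which was classed here with the homologues although its relative *MRPS18B* was not, so the split depends on that choice. In the small subunit 4 of 10 and 4 of 15 fell, and 1 rose in each.

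The ratio of large to small subunit tags moved more than these medians. It was between 1.29 and 1.62 in the uninduced and between 1.43 and 2.22 in the induced libraries, where the lowest value was that of library 2. *MRPL33* alone carried much of this range. Without it the ratio was 1.23 to 1.43 in the uninduced and 1.34 to 1.64 in the induced libraries, and the groups still overlapped. All 78 mRNAs together took 0.773 to 0.864% of gene counts in the uninduced and 0.794 to 0.974% in the induced libraries. In TMM-scaled CPM the order of the means was the reverse. Their sum was 8163 to 9586 CPM (mean 8783) in the uninduced and 7758 to 9097 CPM (mean 8457) in the induced libraries. The direction of the total thus depended on the scaling, and the groups overlapped with both. In these bulk libraries, fewer cells with an mRNA and less of it per cell cannot be told apart.

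The direction of change went along with the base composition of the annotated 3′ end. This is the end of the canonical transcript, and the positions of the tags themselves were not read. The paper reports that induction moved 3′ ends from upstream sites towards annotated ones, so the annotated end need not be where the tags lie. Among the 77 mRNAs, the log2 fold change and the GC content of the last 75 bases of the canonical transcript had a Spearman correlation of −0.57 (Pearson −0.54), and over 12922 tested genes with a value it was −0.52. These are correlations across genes of the same 10 libraries, which are not independent replicates. The mRNAs that fell had a median GC content of 40.7% there (18.7 to 58.7%), those that rose 29.3% (17.3 to 38.7%), and those not called 32.7%. Of the 32 mRNAs with at most 30.7% GC, 2 fell (6.25%) and 8 rose (25%), with a median log2 fold change of 0.45. Of the 6061 genes within that limit 5.99% fell and 32.0% rose, with a median of 0.41. Of the 26 with at least 40.0% GC, 12 fell (46.2%) and none rose, with a median of −0.43, and of 3605 such genes 42.2% fell and 5.30% rose, with a median of −0.50. The 19 in between had a median of −0.26, against −0.06 over 3256 genes.

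Several mRNAs did not follow this relation. *MRPS25* and *MRPS33* were the only ones of the AT-rich class that fell, with 22.7 and 18.7% GC, and for both the groups did not overlap. *MRPL11* and *MRPL43*, with 33.3% GC each, had falls of 0.99 and 0.64 on the log2 scale. With offsets for the GC content of the last 75 bases, *MRPS25* stood at a log2 fold change of −1.32, *MRPS33* at −1.19, *MRPL11* at −0.95 and *MRPL43* at −0.60, each called (edgeR adjusted p = 0.0252, 0.0252, 0.0252 and 0.0254). *MRPL41*, with 58.7% GC, stood at −0.47 instead of −1.15, and *MRPL33* at 1.71 instead of 2.13. Of the falls, 9 were no longer called, those of *MRPS18A*, *MRPS26*, *MRPL27*, *MRPL24* and *MRPL38* (edgeR adjusted p = 0.107, 0.0672, 0.0607, 0.0976 and 0.668) and of *MRPL48*, *MRPL52*, *MRPS11* and *MRPS2*. Of the rises, those of *MRPL16* (0.86, edgeR adjusted p = 0.0568), *MRPL3* and *MRPS14* were no longer called. With these offsets 15 mRNAs were called lower (against 11.9% of all genes) and 10 higher (against 13.8% of all genes), and the median of the 77 was 0.012. The part of base composition in the result was not tested beyond these offsets.

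**Figure D3:**
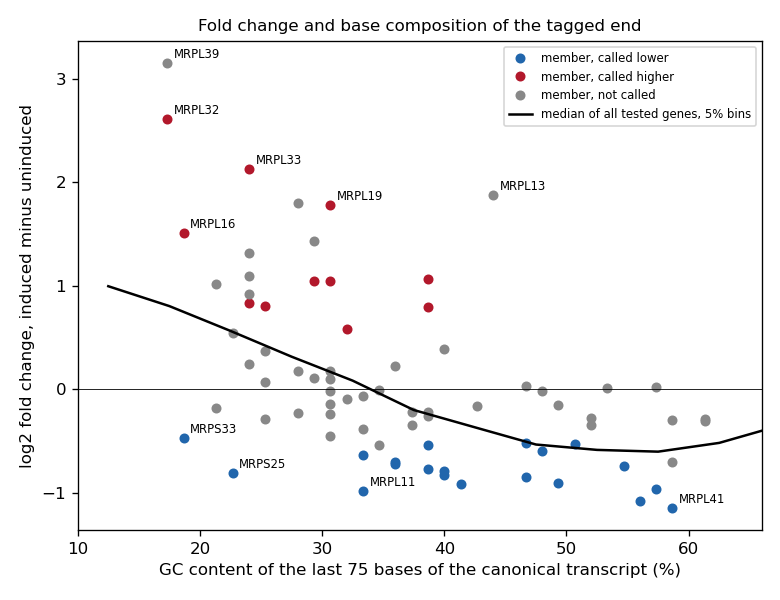
Log2 fold change (induced minus uninduced) of each tested mRNA against the GC content of the last 75 bases of its canonical transcript in percent, with the median of all tested genes in bins of 5% as a line. Most mRNAs lie near the line, *MRPS25*, *MRPS33* and *MRPL11* lie below it, and *MRPL39*, *MRPL32*, *MRPL33*, *MRPL19* and *MRPL13* lie above it.

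The same axis separated libraries within groups. The median level of the AT-rich class relative to the mean of 10 libraries, minus that of the GC-rich class, was −0.61, −0.62, −1.13, −0.46 and 0.36 on the log2 scale in uninduced libraries 1 to 5. It was 0.85, −0.12, 0.87, 0.68 and 0.50 in induced libraries 1 to 5. Uninduced library 5 thus lay on the side of the induced libraries, and induced library 2 between the groups. In the parental line the same difference, relative to the mean of 6 libraries, was −0.53, −0.0096 and 0.31 in no dox libraries 1 to 3 and 0.34, 1.31 and −0.97 in with dox libraries 1 to 3, a range within 1 group wider than that in the transgene line.

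**Figure D4:**
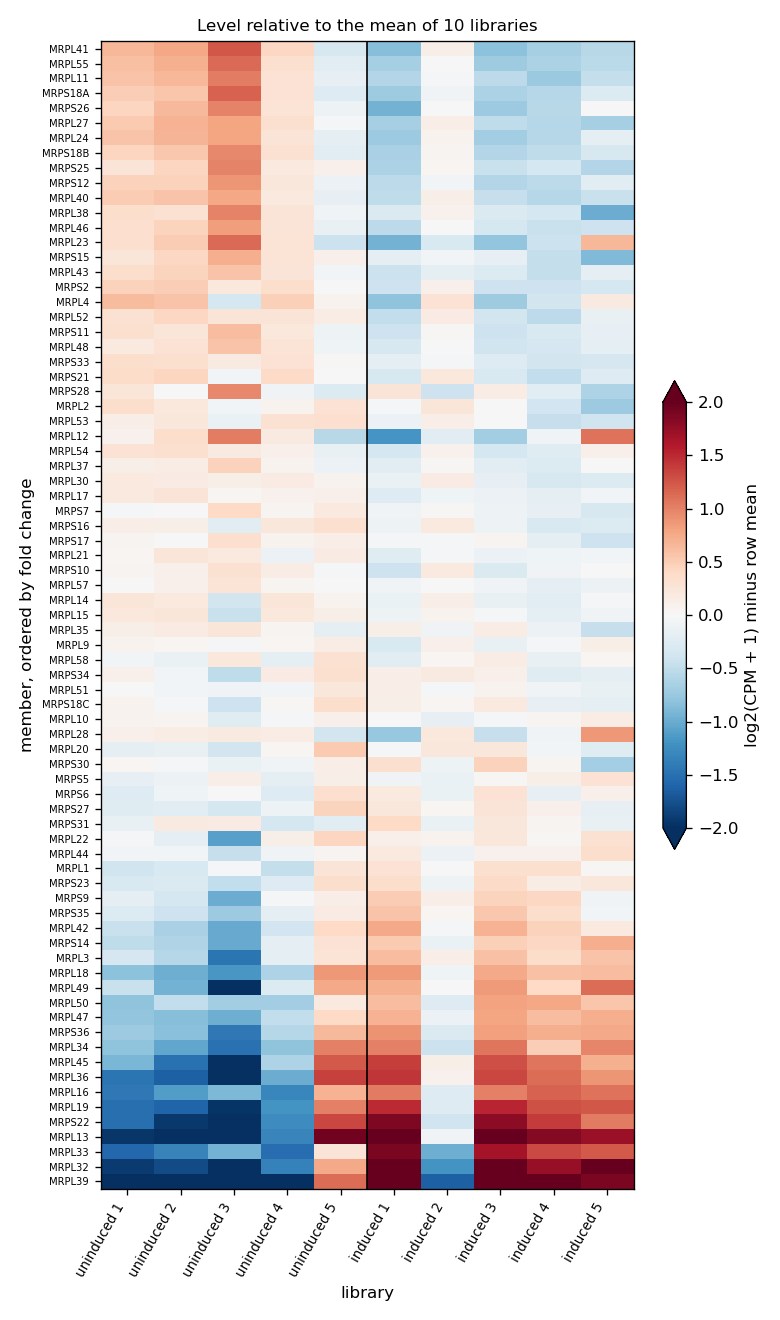
Log2(CPM + 1) minus the row mean for the 77 tested mRNAs (rows, ordered by log2 fold change) in the 10 libraries of the transgene line (columns), in colours that saturate at 2 and −2. The top rows are high in uninduced libraries 1 to 4 and the bottom rows high in induced libraries 1, 3, 4 and 5, and uninduced library 5 and induced library 2 are the columns that depart from their group.

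Leaving out uninduced library 5 and induced library 2 together, which was chosen after seeing the data, gave 27 lower (against 30.5% of all genes) and 22 higher (against 33.8% of all genes), and the 20 falls and 11 rises above were all among them. In that fit the 20 falls lay between 0.59 and 1.52 on the log2 scale, and *MRPL32*, *MRPL19*, *MRPL16* and *MRPS36* were the called mRNAs whose log2 fold change grew by more than 1.5 times. Leaving out uninduced library 5 alone gave 24 lower and 22 higher (against 27.4 and 31.2% of all genes), and leaving out induced library 2 alone gave 23 and 15 (against 23.8 and 25%). Leaving out induced library 1, 3 or 4 gave 9, 11 or 8 lower (against 7.27, 9.14 and 7.14%) and 2 higher each (against 6.99, 8.50 and 7.38%). Without uninduced library 1 or 2 the falls numbered 15 and 13 (against 11.5 and 9.53%) and the rises 2 each (against 8.08 and 7.08%). Without induced library 5, or uninduced library 3 or 4, the falls numbered 20, 20 and 19 (against 15.4, 15.3 and 14.6%) and the rises 7, 6 and 5 (against 13.2, 13.5 and 10.6%). The counts of the mRNAs thus moved with those of all genes. In all 10 fits that left out 1 library, *MRPL41*, *MRPL55*, *MRPL11*, *MRPS18A*, *MRPL27*, *MRPS25*, *MRPS12* and *MRPL43* were called lower and *MRPL33* and *MRPL50* higher. Scaling by total counts alone in place of TMM moved the median of all genes from 0.04 to 0.28 and gave 14 lower and 17 higher (against 10.7 and 30.8% of all genes). With 1 surrogate variable as a covariate none of the 77 was called (1 gene of 13038), and 27 had an unadjusted p below 0.05.

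The genes share several features that the rule did not use. A protein-coding gene starts divergently within 1 kb of 19 of the 78 (24.4%), against 9.55% of 19550 protein-coding genes. *MRPL46* and *MRPS11* share such a start region, and both fell (log2 fold changes −0.72 and −0.53). *MRPS12* and its partner *SARS2*, the mitochondrial seryl-tRNA synthetase, were at −0.79 and −1.16, and *MRPL47* and the complex I subunit *NDUFB5* at 1.04 and 1.12, each called. *MRPL27* and *EME1* were at −0.91 and −0.77, and *MRPL50* and *ZNF189* at 1.04 and 0.60, also each called. Other pairs did not move together. *MRPL43* fell beside *TWNK*, the mitochondrial DNA helicase, which was at 0.33 and not called, and *MRPL36* (1.44, not called) starts beside *NDUFS6*, which fell by 0.55. *MRPL30* (−0.28, not called) starts beside *MITD1*, which rose by 1.27. The pairs were named after their values were seen, and whether partners move together was not tested.

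Promoter letters were read in the 300 bases from 250 before to 50 after the RefSeq start, on both strands. The ETS factor motif CCGGAAG was in 29 of 69 promoters (42.0%), against 14.2% of 15843 protein-coding promoters. The YY1 motif AAGATGGCG was in 13 (18.8%), against 2.74%. The GC box GGGCGG was in 42 (60.9%), against 58.5%. The ETS motif was in 10 of 20 promoters of mRNAs that fell, 4 of 10 that rose and 15 of 38 not called, and the YY1 motif in 5, 3 and 4. Among the starts shown above, the ETS letters stand just before that of *MRPL33* and, on the opposite strand, across that of *MRPL16*. A match is a description and not evidence of binding.

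Other genes of mitochondrial translation were read from lists of known factors. The same background, 19.8% lower and 20.0% higher, applies to their counts. Of 5 ribosomal proteins without an MRP symbol, *AURKAIP1* fell (log2 fold change −1.10) and *DAP3*, the GTP-binding protein of the small subunit, rose (1.15), and 3 did not pass the test. Of 27 assembly and rRNA modification factors 2 fell and 5 rose, from the rRNA methyltransferase *MRM3* (−0.83) to *MTERF3* (2.56), with a median of −0.05. Of 16 translation factors and mRNA binding proteins 2 fell and 5 rose, with a median of 0.19. These included *TACO1* (−1.01), a translational activator of a respiratory chain mRNA, the elongation factor *TUFM* (−0.70), *LRPPRC*, which stabilizes mitochondrial mRNAs (0.41), and *TSFM*, the exchange factor of TUFM (2.51). Falls and rises thus occurred in each list, as they did among the ribosomal proteins.

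In the parental line, doxycycline gave no call. Of the 78 mRNAs 74 passed the filter, and none was called by edgeR at an adjusted p below 0.05, as for all 9124 genes tested (0%). At an unadjusted p below 0.05 there were 2, or 2.70%, against 2.93% of all genes, and DESeq2 called none. The median log2 fold change (with dox minus no dox) was 0.22 over the 74, 0.20 in the large and 0.27 in the small subunit. It was −0.01 over all genes. Of the 74, 54 (73.0%) were above 0, against 49.3% of all genes. This count was 45 with total counts alone, 46 with 1 surrogate variable and 57 with DESeq2. When 1 library was left out it ranged from 45 of 75 (with dox library 3) to 64 of 75 (no dox library 2). The groups did not overlap for 12 mRNAs (16.2%, against 9.52% of all genes), 11 of them higher with doxycycline (4.87% of all genes). Whether the mRNAs as a group moved was not tested.

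The 5 mRNAs with the lowest p were all higher with doxycycline. *MRPS17* stood at 40.6, 49.99 and 46.1 CPM in no dox libraries 1 to 3 and at 93.9, 70.6 and 78.2 CPM in with dox libraries 1 to 3. *MRPL44*, a protein with an RNase III-like fold, stood at 6.76, 28.04 and 22.8 CPM in no dox libraries 1 to 3 and at 47.1, 47.05 and 35.04 CPM in with dox libraries 1 to 3. These groups did not overlap, with log2 fold changes of 0.83 ± 0.36 and 1.16 ± 0.52 (edgeR unadjusted p = 0.0437 and 0.0476, adjusted p = 0.997 for both). *MRPL58*, a peptidyl-tRNA hydrolase that became part of the ribosome, had 0.81 ± 0.38, *MRPS30* 1.14 ± 0.53 and *MRPS6* 0.72 ± 0.39. At 1473286 to 3214808 counts in 3 libraries a group, the SE of these values was 0.36 to 0.53. For the mRNAs that fell in the transgene line, the parental SE ran from 0.37 (*MRPL43*) to 0.98 (*MRPL41*). Their falls there were 0.47 to 1.15, so falls of that size could be missed in the parental line at this depth and number.

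Whether the response to doxycycline differs between the lines was tested as an interaction over all 16 libraries. It was called for 5 of 77 mRNAs, all lower in the transgene line (6.49%, against 2.20% of 12265 genes in that direction), and for none in the other (0.775% of genes). The difference (transgene response minus parental response, log2) was −1.53 ± 0.32 for *MRPL43*, −1.28 ± 0.28 for *MRPS17*, −1.88 ± 0.44 for *MRPL11*, −1.29 ± 0.33 for *MRPL48* and −1.84 ± 0.49 for *MRPL46* (edgeR adjusted p = 0.0372, 0.0372, 0.0421, 0.0476 and 0.04997). This fit scaled all 16 libraries together, so its values are not the plain differences of the fold changes fitted in each line alone. For *MRPL43* those were −0.64 in the transgene and 0.66 in the parental line, and all 5 values lay further below 0 than such differences. The median over all genes in this fit was −0.09.

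In these mRNAs the test drew on values of both lines. *MRPL11* stood at 129.7, 149 and 171 CPM in no dox libraries 1 to 3 and at 246, 146 and 317 CPM in with dox libraries 1 to 3 in the parental line, where the fold change was 0.65 ± 0.40 and not called. *MRPL43* stood at 76.9, 112 and 109 CPM in no dox libraries 1 to 3 and at 177, 134 and 160.5 CPM in with dox libraries 1 to 3, with all 3 treated libraries above all untreated ones. *MRPL46* stood at 14.1, 44.5 and 47.9 CPM in no dox libraries 1 to 3 and at 88.2, 45.9 and 64.4 CPM in with dox libraries 1 to 3, where no dox library 1 was by far the lowest. *MRPS17* had −0.23 ± 0.14 in the transgene line, which was not called (edgeR adjusted p = 0.186), and 0.83 ± 0.36 in the parental line. The 5 calls were lost without a filter, with edgeR's own filter, with the replicate block, with total counts and without any one of several libraries (0 without uninduced library 1, 2, 3 or 4, induced library 1, 3, 4 or 5, no dox library 1 or with dox library 1 or 3). Without no dox library 2, *MRPL43* alone of the 5 was called, beside 2 others, and without no dox library 3, 4 of the 5 were, all but *MRPL48*, also beside 2 others. All 5 were among the 17, 18 and 24 mRNAs called without induced library 2, with dox library 2 and uninduced library 5. The parental libraries came from another instrument with another read length, and line and sequencing run cannot be told apart.

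**Figure D5:**
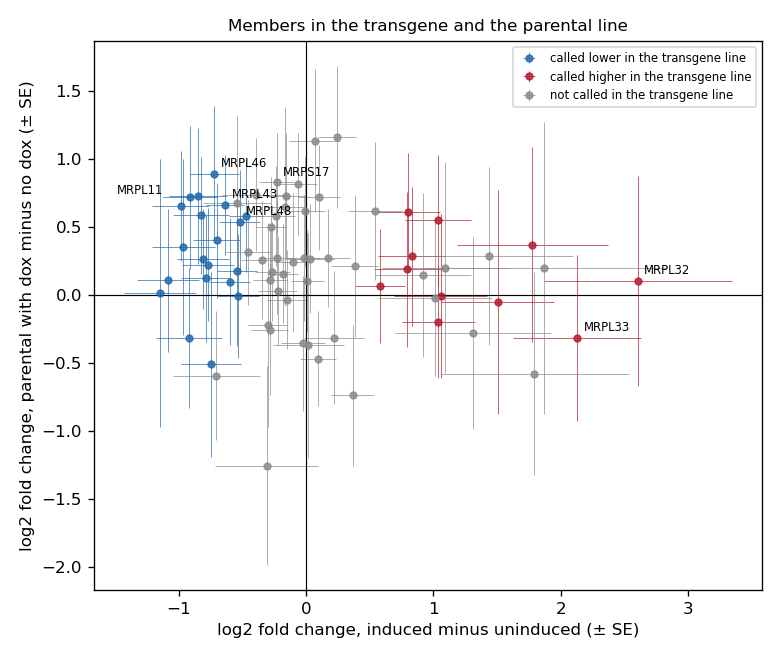
Log2 fold change of each mRNA tested in both lines, transgene line (induced minus uninduced) on the x axis and parental line (with dox minus no dox) on the y axis, with SEs as bars (n = 5 and 5, and 3 and 3). Most mRNAs lie above 0 on the y axis, bars there are wider, and the 5 mRNAs with a called difference between the lines lie at the upper left.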

How the data were processed

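The deposited files hold unnormalized tag counts per Ensembl gene, which the authors obtained, per the paper's methods, by running Lexogen's pipeline for QuantSeq REV against GRCh38. The annotation release, the use of strand and the handling of duplicate tags are not given in the sources used here, and no column was left out. Genes were named from GENCODE 44 (56104 of 60107). The mRNAs and gene lists were chosen with earlier results of these data known.

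The test was edgeR's quasi-likelihood test (version 4.0.16, R 4.3.3) with TMM factors and no block, on genes whose base mean exceeded 20, with Benjamini-Hochberg adjustment over all genes of the fit and calls at an adjusted p below 0.05. SEs of log2 fold changes were taken as the change over the root of the F statistic. Depth was 12527183 to 23251834 counts in the transgene line and 1473286 to 3214808 in the parental line, and the common biological coefficient of variation was 0.320 and 0.444. The fits were also run on simulated counts with known changes. Those counts were drawn independently for each gene, without libraries that depart on a shared axis, so they cannot show how such libraries affect the calls. CPM are TMM-scaled, and log2 levels of libraries used a prior count of 2.

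Alternatives were DESeq2 1.42.0 (Wald test, and its size factors), total counts, omission of the filter or use of filterByExpr, a block by replicate number, GC offsets per transcript (lowess span 0.5), block and offsets together, 1 surrogate variable (sva 3.50.0) and each replicate left out. Leaving out 2 libraries together and offsets for the last 75 bases were added after seeing the data.

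In the transgene line up to 15 of the called falls and 15 of the called rises were named by size, with every library for the 6 largest of each, for *MRPL11*, *MRPL41*, *MRPS15* and the 3 MRPS18 genes. In the parental line the 5 with the lowest p, in the test between lines every call, and in other lists the largest called fall and rise with *TUFM* and *LRPPRC* were named. *MRPS2*, *MRPL52*, *MRPS11*, *MRPS33*, *MRPL17*, *MRPL39*, *MRPL13*, *MRPL30*, *MRPL36* and partners of divergent starts were named after their values were seen.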

Additional observations from a re-analysis of the deposited data

Results flagged for a closer look

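Among the 16 mRNAs whose level is given in every library of the transgene line, 15 of 32 groups of 5 libraries held 1 library that stood apart, by a gap to its neighbour above 0.71 of the range of the group. Among groups of unselected, normally distributed values, about 1 of 20 would pass this limit. The 16 mRNAs share the same libraries and were mostly picked by their change in them, so that rate is no reference for this count. In the induced group it was library 2 every time. It was the highest for *MRPL41* (0.761 of the range), *MRPL55* (0.784) and *MRPL27* (0.844). It was the lowest for *MRPL32* (0.752), *MRPL19* (0.749), *MRPL16* (0.815), *MRPS36* (0.792) and *MRPL47* (0.761). In the uninduced group it was library 5 every time, as the highest for *MRPL32* (0.864), *MRPL33* (0.785), *MRPL19* (0.897), *MRPL16* (0.865), *MRPS36* (0.746), *MRPL47* (0.751) and *MRPL39* (0.979).

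The response to doxycycline differed between the lines, by the interaction test in edgeR with all 16 libraries scaled together, for *MRPL43* (−1.53, log2, transgene minus parental response), *MRPS17* (−1.28), *MRPL11* (−1.88), *MRPL48* (−1.29) and *MRPL46* (−1.84). None of the 5 was called with filterByExpr, no filter, the replicate block, total counts or in 11 of the 16 fits that left out 1 library. The induced libraries were lower than the uninduced ones on average in each of these, and the parental libraries with doxycycline higher than those without.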

How the results depend on the processing

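The count of falls stayed within 1.5 times of 20 under the other tests, scalings, filters, blocks and offsets tried except 1 surrogate variable, which gave 0, and ranged from 8 to 24 when 1 replicate was left out. The count of rises, 11, became 0 with 1 surrogate variable, 5 with GC offsets, 17 with total counts, 18 with the replicate block and 22 without both doubted libraries, and ranged from 2 to 22 when 1 replicate was left out. No called fall became a called rise in any setting, or the reverse. Calls in the parental line stayed at 0 in every setting, and 0 to 8 mRNAs had an unadjusted p below 0.05. The count of differences between lines, 5, became 15 with DESeq2, 3 with its size factors in edgeR, 28 without both doubted libraries, 0 with filterByExpr, no filter, the replicate block or total counts (26, 28, 30 and 15 at an unadjusted p below 0.05), and 0 to 24 when 1 replicate was left out. The large minus small difference of medians, 0.08, was 0.27 with GC offsets and block together and 0.29 with offsets for the last 75 bases, and 0.027 to 0.24 in all other settings. The cause was not tested.

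*MRPS18C*, near 0 in the fit reported, changed sign with offsets for the last 75 bases (0.091), without both doubted libraries (0.068), with the replicate block (0.000104) and with total counts (0.21), and ranged from −0.12 to 0.0700 when 1 replicate was left out (0.031 and 0.040 without induced replicates 4 and 5). None of these was called. The cause was not tested.

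Same-numbered libraries deviated together in 2 of 5 pairs of the transgene line and 1 of 3 of the parental line (correlations of −0.37 to 0.63 and −0.42 to 0.24), so the numbers were not taken to pair the samples. With the replicate block the falls numbered 18, the rises 18, the parental calls 0 and the differences between lines 0. At the depth of the parental line, 4 of the 78 mRNAs were not tested.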
